A study of Arabidopsis thaliana with 5 samples.

Results

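The genes for the subunits of Polycomb repressive complex 2 (PRC2) were examined in endosperm nuclei of Arabidopsis at 4 days after pollination (DAP). They were taken by locus identifier as the known subunits of the complex and make up 8 of the 33602 genes of the expression table. Of these, MEA (MEDEA, AT1G02580), FIS2 (FERTILIZATION INDEPENDENT SEED 2, AT2G35670), FIE (FERTILIZATION INDEPENDENT ENDOSPERM, AT3G20740) and MSI1 (MULTICOPY SUPPRESSOR OF IRA1, AT5G58230) encode the 4 core subunits of the FIS-PRC2 of the seed. CLF (CURLY LEAF, AT2G23380), SWN (SWINGER, AT4G02020), EMF2 (EMBRYONIC FLOWER 2, AT5G51230) and VRN2 (VERNALIZATION 2, AT4G16845) are the 4 paralogues that take the places of MEA and FIS2 in the sporophytic complexes. The comparison asked how the seed-specific subunits relate to these paralogues in level, and whether any of the genes differed with the direction of the cross.

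PRC2 places trimethylation on lysine 27 of histone H3 (H3K27me3), a mark of repressed genes. A complex holds a catalytic SET domain protein related to Drosophila Enhancer of zeste (MEA, CLF or SWN), a zinc finger protein related to Drosophila Su(z)12 (FIS2, EMF2 or VRN2), and the WD40 repeat proteins FIE and MSI1, which the seed and the sporophytic complexes share. In the endosperm, FIS-PRC2 is known for repression of the maternal alleles of paternally expressed imprinted genes (PEGs), and its loss leads to endosperm development without fertilization and to seed abortion. MEA and FIS2 are themselves known as maternally expressed imprinted genes, activated in the central cell by the DNA demethylase DEMETER (DME).

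The nuclei came from reciprocal crosses of the accessions Col and Ler, with the mother written first, and were purified by INTACT, in which nuclei that carry a biotinylated envelope protein are captured on streptavidin. The tag (NTF) and the biotin ligase (BirA) were both expressed from the promoter of PHE1, an endosperm gene. In Col × Ler, the mother was the male sterile mutant dde2 in Col, which carried both transgenes (the INT line), and the pollen came from Ler wild type. In Ler × Col, the mother was the male sterile mutant pistillata (pi-1) in Ler, and the pollen came from the INT line in Col, so that the transgenes came from the mother in one cross and from the father in the other. Poly(A) RNA of 2 Col × Ler libraries (replicates 2 and 3) and 3 Ler × Col libraries (replicates 1, 2 and 3) was sequenced. The mutant mothers and the transgenes differ with the direction of the cross, and their part in any difference between crosses cannot be told apart from it. Expression is given as RPKM, a read number divided by gene length and library depth. Reads of the maternal and paternal alleles are summed, so that neither maternal nor paternal expression of MEA or FIS2 can be read from these values.

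Since a read that matched several paralogues could have been assigned to any of them, the coding sequences of the 8 genes were compared in the TAIR10.1 assembly (RefSeq). The longest stretch that MEA shares with any other gene is 30 bases, and that gene is SWN. It lies at base 1401 of the coding sequence of MEA and base 1884 of that of SWN. In the lines below, the shared stretch is in capitals with 20 bases on either side.
MEA: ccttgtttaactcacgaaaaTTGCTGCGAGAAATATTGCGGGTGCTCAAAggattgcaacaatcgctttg
SWN: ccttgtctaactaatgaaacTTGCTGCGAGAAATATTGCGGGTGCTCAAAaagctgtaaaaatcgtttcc
Over aligned bases, the coding sequences of MEA and SWN were 67.5% identical, those of MEA and CLF 60.4%, and those of CLF and SWN 61.9%. The longest stretch of MEA and CLF was 13 bases. CLF and SWN share 20 bases nearer to their starts, shown in the same way.
CLF: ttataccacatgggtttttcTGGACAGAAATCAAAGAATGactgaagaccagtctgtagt
SWN: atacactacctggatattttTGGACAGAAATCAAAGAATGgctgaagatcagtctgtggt
In the Su(z)12-like family, FIS2 and VRN2 were 67.9% identical, EMF2 and VRN2 63.8%, and FIS2 and EMF2 57.9%. For MSI1 and FIE, which are both WD40 proteins of different families, the same alignment gave 56.1%. The longest stretches of FIS2 with VRN2 and of EMF2 with VRN2 were 15 bases each, in different places of VRN2, at bases 1016 and 892.
FIS2: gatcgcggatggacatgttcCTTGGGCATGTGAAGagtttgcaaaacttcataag
VRN2: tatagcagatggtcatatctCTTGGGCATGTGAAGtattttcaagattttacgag
EMF2: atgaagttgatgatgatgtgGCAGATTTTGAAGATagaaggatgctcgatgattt
VRN2: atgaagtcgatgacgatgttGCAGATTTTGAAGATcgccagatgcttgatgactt
Across all genes, the longest stretch was 36 bases, shared by FIS2 and AT3G13500, a run of GAT triplets (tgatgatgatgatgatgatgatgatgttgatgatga) at base 48 of FIS2. All of these stretches are shorter than a read of 125 bases, and no member shared over 50 bases with another gene.

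The loci lie on chromosomes 1 to 5 of TAIR10.1. MEA is at chr1:544733-549202 and FIS2 at chr2:14992565-14996756, both on the plus strand. CLF is at chr2:9955092-9960386, SWN at chr4:886580-891987, EMF2 at chr5:20823644-20829644 and VRN2 at chr4:9476069-9479878, all on the plus strand. FIE is at chr3:7248809-7252452 on the minus strand and MSI1 at chr5:23556012-23558245 on the plus strand. The exons of MEA, SWN, EMF2 and VRN2 overlap no other gene. Exons of FIS2, CLF, FIE and MSI1 overlap genes of the opposite strand, by 44 bases for FIS2 and by 132 bases, or 8.12% of its exon length, for MSI1. Whether reads were counted by strand is not given in the sources used here, and without strand, reads in these overlaps cannot be told apart. The gene that overlaps FIS2, AT2G35680, was at 188 to 398 RPKM, far above FIS2. Spread evenly over its exons, its reads in the 44 shared bases would amount to between 13.4 and 48.0% of the reads of FIS2, with the highest share in replicate 2 of Ler × Col. By the same estimate, the overlapping gene of MSI1 would account for between 12.9 and 24.4% of the reads of MSI1, and AT3G20730 for at most 3.41% of those of FIE. CLF overlaps AT2G23370, at between 2.67 and 38.2% of its reads, and AT2G23390, at between 0.695 and 8.75%. Both shares of CLF were highest in replicate 2 of Ler × Col. The levels of FIS2, CLF and MSI1 below carry this uncertainty.

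The libraries differed in ways that touch every value below. Their depths, recovered from the steps of the RPKM values of tRNA genes, were between 12550000 and 28560000 reads. The median RPKM over all genes was 1.91 and 4.47 in replicates 2 and 3 of Col × Ler. In replicates 1, 2 and 3 of Ler × Col it was 8.96, 0.952 and 3.40. A gene's RPKM and its rank can therefore order the libraries differently. By the study's methods, first replicates were prepared from more siliques than the others. They were set aside there for contamination, as judged from parental read ratios. Replicate 1 of Ler × Col is kept here. Differences of MEA, CLF and SWN and of FIS2 and EMF2 within libraries are also given without it. So are the largest differences between the crosses, while ranges, mean shares and mean levels include it. In the replicates 2 of both crosses, 10800 and 12393 genes were listed at 0, against 647 to 3293 genes in the other 3 libraries. The 12 seed coat markers summed to 32.3 and 24.4 RPKM in the replicates 2 of Col × Ler and Ler × Col and to between 196 and 226 RPKM in the other libraries. The 5 embryo markers summed to 63.2 RPKM in replicate 1 of Ler × Col and to between 1.16 and 8.65 RPKM elsewhere, and the 6 photosynthesis genes to between 690 and 4683 RPKM. The 10 endosperm markers summed to between 393 and 880 RPKM, of which ZOU alone, singled out after its values were seen, gave between 190 and 777 RPKM. The other 9 summed to 140 and 103 RPKM in the replicates 2 of Col × Ler and Ler × Col, where 1 and 2 markers were listed at 0, and to between 160 and 203 RPKM in the other libraries. In these pooled nuclei, fewer nuclei of a type and less RNA per nucleus cannot be told apart.

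All 8 genes were detected in all 5 libraries. FIE was the highest, with a mean of 74.8 ± 37.9 RPKM (SD, n = 5), and VRN2 the lowest. The order of the means was FIE, SWN, EMF2, MSI1, FIS2, MEA, CLF and VRN2, so that MEA and FIS2, the subunits particular to the FIS complex, were each below a sporophytic paralogue, SWN and EMF2 respectively. The places of CLF and VRN2 rest on replicate 1 of Ler × Col, where CLF was at 10.9 and VRN2 at 2.70 RPKM. CLF exceeded VRN2 in 2 of 5 libraries, that one and replicate 2 of Col × Ler.

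**Figure D1:**
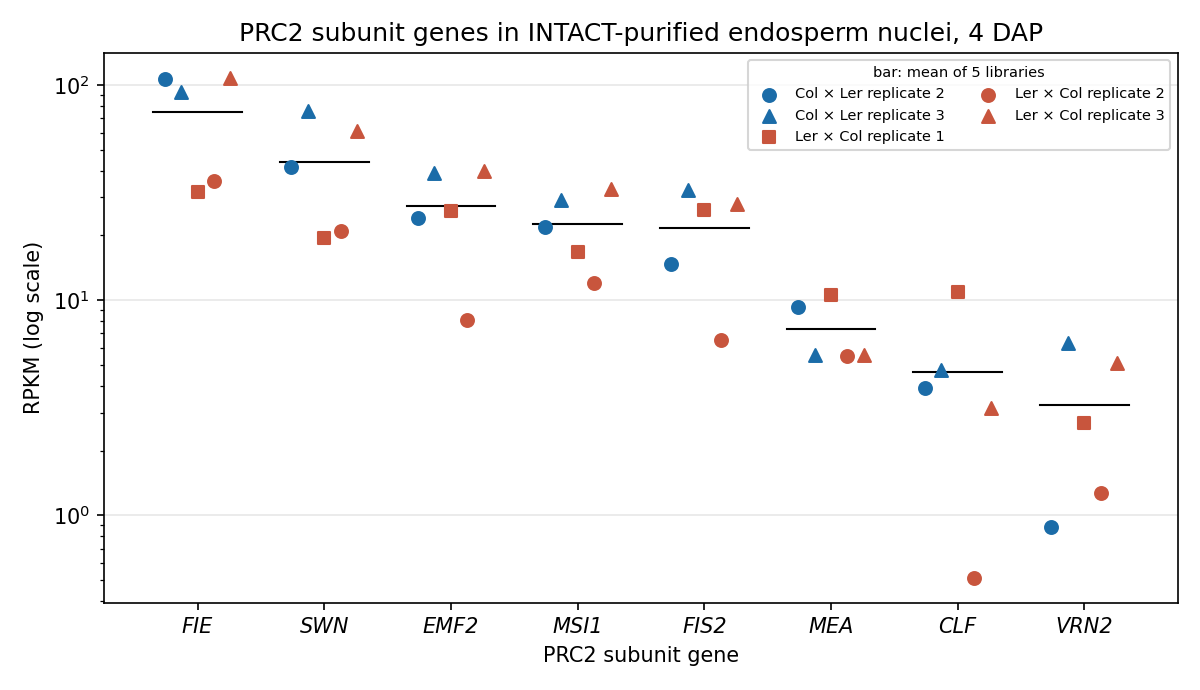
RPKM (log axis) of the 8 PRC2 subunit genes in each library, ordered by the mean of the 5 libraries (black bars). Circles, triangles and squares are replicates 2, 3 and 1, blue is Col × Ler and red Ler × Col. FIE lies between 31.9 and 108 RPKM and MEA between 5.52 and 10.6 RPKM, and the crosses overlap for every gene. Of all genes tested, 8.09% have ranges that do not overlap.

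Among the catalytic subunits, MEA, the SET domain protein of the FIS complex, was at 9.33 and 5.58 RPKM in replicates 2 and 3 of Col × Ler and at 10.6, 5.52 and 5.57 RPKM in replicates 1, 2 and 3 of Ler × Col. Its values spanned 1.91-fold, the narrowest range of the 8 genes. In rank, MEA lay between the 44.1th and the 70.7th percentile of the 26712 protein-coding genes of a library. An estimated 270 to 652 reads stood behind each value.

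SWN, which acts with CLF in the plant body and is expressed in many tissues, was the most abundant of the catalytic subunit genes in every library. It was at 41.6 and 75.9 RPKM in Col × Ler and at 19.5, 20.9 and 60.9 RPKM in Ler × Col. Both replicates 3 were above every other library, and replicates 1 and 2 of Ler × Col were the lowest in RPKM. In rank among protein-coding genes, SWN was lowest in replicate 1 of Ler × Col, at the 74.3th percentile. It ranked at the 90.5th in replicate 2 of that cross and at the 89.7th in replicate 2 of Col × Ler.

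CLF, the main H3K27me3 methyltransferase of vegetative tissue, was at 3.92 and 4.71 RPKM in Col × Ler and at 10.9, 0.514 and 3.15 RPKM in Ler × Col. This 21.3-fold range was the widest of the 8 genes and was spanned by replicates 1 and 2 of Ler × Col, with the Col × Ler libraries in between. The value of 0.514 RPKM rests on an estimated 37 reads. CLF was highest in the library with the highest sums of embryo markers, and the part of embryo nuclei or RNA in this value was not tested. By rank among protein-coding genes, CLF was hardly higher there (49.95th percentile) than in replicate 2 of Col × Ler (48.95th). Its lowest rank was the 33.7th percentile, in replicate 2 of Ler × Col. The libraries that span its range also had the highest and lowest median RPKM over all genes, 8.96 and 0.952.

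Of the summed RPKM of MEA, CLF and SWN, SWN took 75.9 and 88.1% in Col × Ler and 47.5, 77.6 and 87.5% in Ler × Col. MEA took 17.0 and 6.47% in Col × Ler and 25.8, 20.5 and 7.99% in Ler × Col, a mean of 15.6% ± 8.23 (SD, n = 5). Thus SWN held the largest share in all 5 libraries, and its share was lowest in replicate 1 of Ler × Col, where CLF reached 26.7%. In the other 4 libraries CLF took between 1.91 and 7.15%. The share of MEA was higher in the replicates 2 (17.0 and 20.5%) than in the replicates 3 (6.47 and 7.99%). The 12 seed coat markers summed to 32.3 and 24.4 RPKM in the former and to 202 and 226 RPKM in the latter. In replicate 1 of Ler × Col they summed to 196 RPKM, with MEA at 25.8%. The part of seed coat nuclei or RNA in these shares was not tested.

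Within libraries, MEA was below SWN by a mean of 2.28 ± 1.12 on the log2(RPKM + 1) scale (SD, n = 5), lower in 5 of 5 libraries (two-sided exact sign-flip permutation test, p = 0.0625, adjusted p = 0.0875 over the 28 pairs of the 8 genes). CLF was below SWN by a mean of 3.08 ± 1.32, again in 5 of 5 libraries (exact permutation p = 0.0625). With 5 libraries no p below 0.0625 can be reached, so that neither difference could pass a threshold of 0.05. MEA exceeded CLF in 4 of 5 libraries, by 0.80 ± 0.85 on average (exact permutation p = 0.125, adjusted p = 0.146), and the exception was replicate 1 of Ler × Col, where the 2 genes were at 10.6 and 10.9 RPKM. Without that library, the mean difference was 1.01 for MEA and CLF, -2.64 for MEA and SWN and -3.65 for CLF and SWN, each in the same direction in 4 of 4 libraries. As ratios, SWN was between 1.84 and 13.6 times MEA, and MEA between 0.965 and 10.7 times CLF. The lowest value of each ratio came from replicate 1 of Ler × Col.

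Of the zinc finger subunits, FIS2, that of the FIS complex, was at 14.7 and 32.5 RPKM in Col × Ler and at 26.1, 6.55 and 27.97 RPKM in Ler × Col. EMF2, a repressor of flowering in the seedling, was at 24.1 and 39.1 RPKM in Col × Ler and at 25.9, 8.06 and 39.9 RPKM in Ler × Col. VRN2, which keeps FLC repressed after cold, was at 0.881 and 6.33 RPKM in Col × Ler and at 2.70, 1.27 and 5.13 RPKM in Ler × Col. In RPKM, all 3 genes were lowest in a replicate 2, FIS2 and EMF2 in that of Ler × Col and VRN2 in that of Col × Ler. In rank among protein-coding genes, VRN2 was lowest in replicate 1 of Ler × Col, at the 9.43th percentile, against 34.5 to 46.5 elsewhere. FIS2 ranked at the 73.1th and 73.9th percentile in the replicates 2 of Col × Ler and Ler × Col. EMF2 was lowest in rank in replicate 2 of Ler × Col, at the 77.8th percentile.

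The levels of FIS2 and EMF2 spanned 4.96-fold and 4.95-fold, while their shares of the family moved little. FIS2 took between 37.1 and 47.7% of the summed RPKM of the family (mean 41.2% ± 4.13, SD, n = 5), and EMF2 between 47.4 and 60.7% (mean 52.7% ± 5.16). VRN2 took between 2.22 and 8.13%. The ratio of EMF2 to FIS2 lay between 0.993 and 1.64 in the 5 libraries, whereas that of SWN to MEA spanned 1.84 to 13.6. The lowest value of both ratios came from replicate 1 of Ler × Col. EMF2 overlaps no other gene, but the overlap estimate for FIS2 differed between libraries. It was 13.4% of the reads of FIS2 in replicate 1 and 48.0% in replicate 2 of Ler × Col. The steadiness of the FIS2 share therefore holds for the values as listed.

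**Figure D2:**
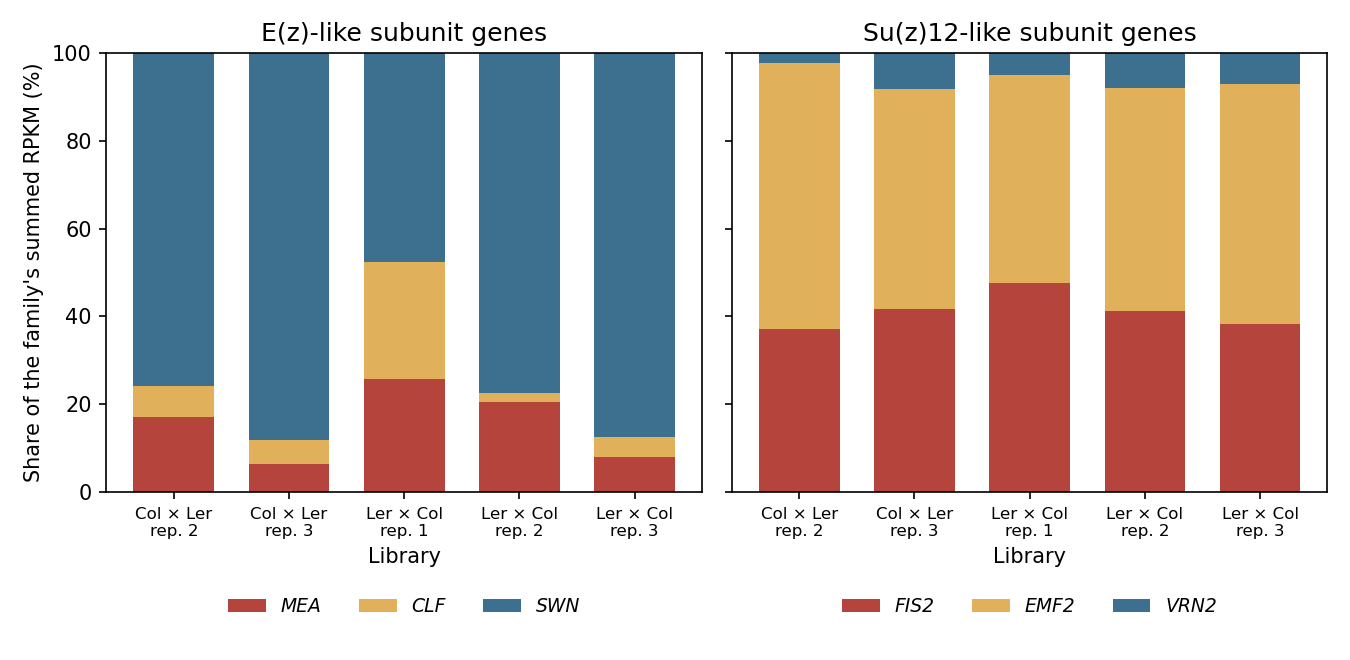
Share of each gene in the summed RPKM of its family (percent) in each library, for the E(z)-like genes (left) and the Su(z)12-like genes (right). SWN holds between 47.5 and 88.1% of its family and MEA between 6.47 and 25.8%, while FIS2 holds between 37.1 and 47.7% and EMF2 between 47.4 and 60.7%.

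On the log2(RPKM + 1) scale, FIS2 was below EMF2 by 0.34 ± 0.26 (SD, n = 5), lower in 4 of 5 libraries (two-sided exact permutation p = 0.125, adjusted p = 0.146 over 28 pairs). In replicate 1 of Ler × Col the genes were at 26.1 and 25.9 RPKM, and without it FIS2 was lower in 4 of 4 libraries, with a mean difference of -0.42. Reads that AT2G35680 may have placed in its overlap with FIS2 were not removed from these values. FIS2 exceeded VRN2 by 2.42 ± 0.54 and EMF2 exceeded VRN2 by 2.76 ± 0.64, each in 5 of 5 libraries and at the smallest p the exact test can give (0.0625).

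The shared WD40 subunit FIE, the only Arabidopsis relative of Drosophila Extra sex combs, was at 106 and 92.7 RPKM in Col × Ler and at 31.9, 35.8 and 108 RPKM in Ler × Col. It lay between the 87.9th and the 96.4th percentile of protein-coding genes. MSI1, which is also a subunit of the chromatin assembly factor CAF-1, was at 21.9 and 29.1 RPKM in Col × Ler and at 16.8, 12.0 and 33.0 RPKM in Ler × Col. For both genes, replicate 3 of Ler × Col was the highest library in RPKM and replicates 1 and 2 of that cross the lowest. In rank, both were lowest in replicate 1 of Ler × Col, where MSI1 lay at the 68.6th percentile. MSI1 was highest in rank in replicate 2 of Ler × Col (84.0th) and FIE in replicate 2 of Col × Ler.

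FIE exceeded each of the other 7 genes in 5 of 5 libraries. The difference between neighbours in the order of levels was 0.77 ± 0.37 from FIE to SWN, higher in 5 of 5 libraries, and 1.31 ± 0.93 from FIS2 to MEA, also in 5 of 5 (log2(RPKM + 1), exact permutation p = 0.0625 each, adjusted p = 0.0875). The other neighbours did not keep one direction. SWN exceeded EMF2 in 4 of 5 libraries, EMF2 exceeded MSI1 in 4, MSI1 exceeded FIS2 in 3 and CLF exceeded VRN2 in 2. The mean differences of EMF2 and MSI1 (0.18 ± 0.43) and of MSI1 and FIS2 (0.16 ± 0.55) were smaller than their SDs, as was that of CLF and VRN2 (0.31 ± 1.13).

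Whether a subunit gene differed with the direction of the cross was tested with limma on log2(RPKM + 1). No subunit gene was called at an adjusted p under 0.05 (0 of 8), where 2 of the 25579 genes tested were called, a background of 0.00782%. limma was also tried on data made with the spread of these libraries, where 0 of 200 genes changed by 3 on the log2 scale were called. The lack of calls among the 8 genes therefore does not show equal levels. At an unadjusted p under 0.05 the counts were 0 of 8 and 266 of 25579. The RPKM ranges of the crosses overlapped for all 8 genes. Of the tested genes, 8.09% had ranges that did not overlap, and 8 genes are too few to set apart from that share. The median log2 fold change of the 8 genes, Col × Ler over Ler × Col, was 0.37, against 0.10 for all genes tested, and 7 of 8 values were above 0. Under the stricter RPKM filter of 5, which leaves out CLF, the median over the 16875 genes that passed was 0.36. The 8 genes are therefore not set apart from genes of higher level by their median. The share of all genes above 0 was not computed. The log2 fold changes of MEA and FIS2 were below 0 after quantile normalization (-0.059 and -0.061). With 1 library left out in turn, they ran from -0.27 to 0.38 for MEA and from -0.29 to 0.89 for FIS2. The direction of neither gene is therefore settled.

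The largest difference was that of FIE, at 99.5 ± 9.66 RPKM (SD, n = 2) in Col × Ler and 58.4 ± 42.6 RPKM (n = 3) in Ler × Col. Its log2 fold change was 0.98 with an SE of 0.74 and a 95% interval from -0.46 to 2.43 (limma, unadjusted p = 0.183, adjusted p = 0.99997). Replicate 3 of Ler × Col, at 108 RPKM, was above both Col × Ler libraries. SWN followed with 0.92 (95% interval -0.57 to 2.41), from 58.7 ± 24.2 RPKM (n = 2) and 33.8 ± 23.6 RPKM (n = 3). Without replicate 1 of Ler × Col, the log2 fold changes were 0.67 for FIE and 0.64 for SWN.

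For the subunits particular to the FIS complex, the crosses were close in mean level. MEA was at 7.45 ± 2.65 RPKM (n = 2) in Col × Ler and 7.21 ± 2.89 RPKM (n = 3) in Ler × Col, with a log2 fold change of 0.06 (95% interval -2.10 to 2.22). FIS2 was at 23.6 ± 12.5 and 20.2 ± 11.9 RPKM, with a log2 fold change of 0.34 (95% interval -1.32 to 2.00). The interval of MEA reaches past 2 on the log2 scale in either direction, so that equal levels are not shown. The remaining log2 fold changes were 0.56 for EMF2, 0.40 for MSI1, 0.33 for CLF and -0.00 for VRN2, with SEs between 0.81 and 1.31.

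**Figure D3:**
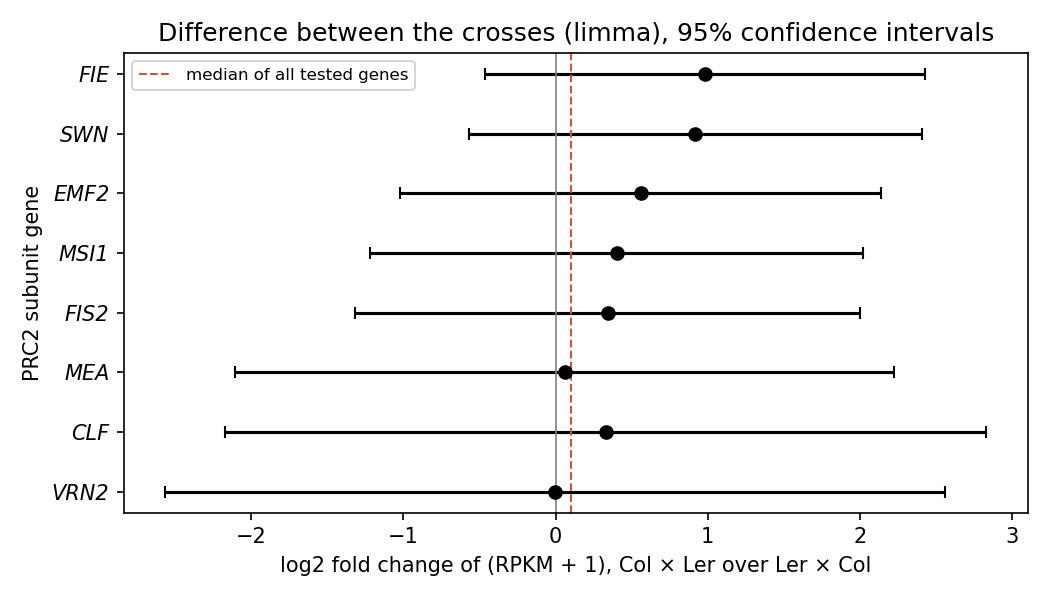
Log2 fold change of RPKM + 1, Col × Ler over Ler × Col, for the 8 genes, with 95% confidence intervals from limma (2 against 3 libraries). The grey line marks 0 and the dashed line the median of all tested genes, 0.10. All 8 intervals include 0.

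The balance of paralogues was compared between the crosses as the difference of their log2(RPKM + 1) values within a library. The difference of MEA and SWN was -2.80 in Col × Ler and -1.94 in Ler × Col, which is -0.86 between the crosses (two-sided exact permutation p = 0.4, adjusted p = 0.75 over 6 pairs). This value rests on single libraries: it was -1.61 without replicate 2 and -0.11 without replicate 3 of Col × Ler, and -0.30 without replicate 1 and -1.51 without replicate 3 of Ler × Col. That of FIS2 and EMF2 was -0.47 and -0.25, which is -0.22 between the crosses (exact permutation p = 0.5, adjusted p = 0.75). For the other 4 pairs the differences between crosses ranged from -0.59 to 0.56, with exact permutation p from 0.5 to 1. The 10 ways to split 5 libraries into 2 and 3 allow no p below 0.1, so that no pair could pass a threshold of 0.05.

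Replicates of the same cross were also compared. Of the 8 subunit genes, 6 were higher in replicate 3 than in replicate 2 in both crosses, as were 69.5% of all genes tested, so that this count is near the background. FIS2 was higher by 1.09 in Col × Ler and by 1.94 in Ler × Col (log2(RPKM + 1)), and EMF2 by 0.67 and 2.18. The median over all tested genes was 0.73 and 1.26. MEA did not follow, with -0.65 in Col × Ler and 0.01 in Ler × Col, and FIE was at -0.20 and 1.56. Of the seed coat markers, 11 of 12 were also higher in replicate 3 in both crosses, as were 6 of 6 photosynthesis genes. The latter summed to 2289 and 4683 RPKM in replicates 2 and 3 of Col × Ler and to 690 and 3472 RPKM in those of Ler × Col. Of the 10 endosperm markers, 6 were higher and 3 (PHE1, AGL62 and ZOU) lower in both crosses. Of the 5 embryo markers, 3 were higher in both. The part of seed coat and other silique nuclei or RNA in these differences was not tested.

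The other genes of the Polycomb pathway were taken from 8 lists of 50 genes, of which 48 passed the filter on low values. None was called between the crosses by limma in either direction, 0 of 48, which does not show equal levels at the spread of these libraries. None of the 48 had an unadjusted p under 0.05. Their median log2 fold change was 0.14, against 0.10 for all genes, and the medians of the lists with several genes ran from -0.50 for the targets of the sporophytic complexes to 0.61 for the recruiters and H3K27me1 writers. In replicate 3 against replicate 2, 29 of the 50 were higher and 11 lower in both crosses. Of all genes tested, 69.5% were higher and 5.4% lower in both. The 50 include ADM and AGL19, which did not pass the filter that the tested genes passed. Of the PRC2 subunit genes, 0 of 8 were lower in both, too few genes to set that count apart from the background.

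DME, the DNA glycosylase that activates the maternal alleles of MEA and FIS2 in the central cell, was at 153 and 70.0 RPKM in Col × Ler and at 99.9, 395 and 94.7 RPKM in Ler × Col. It was lower in replicate 3 than in replicate 2 in both crosses. FIS2 was higher in both, as were 69.5% of all genes tested. MEA differed by -0.65 in Col × Ler and by 0.01 in Ler × Col (log2(RPKM + 1)). A relation of DME to the levels of FIS2 and MEA was not tested. The most abundant gene of the lists, RING1A, a RING-finger subunit of PRC1, was at 499 and 241 RPKM in Col × Ler and at 332, 1105 and 249 RPKM in Ler × Col, above all 8 PRC2 genes in each library. LHP1, a chromodomain protein that binds H3K27me3, was at 303 and 102 RPKM and at 130, 566 and 138 RPKM.

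VAL1, a B3 domain protein that recruits Polycomb complexes to DNA, was at 478 and 232 RPKM in Col × Ler and at 236, 777 and 312 RPKM in Ler × Col. REF6, an H3K27me3 demethylase, was at 113 and 62.5 RPKM and at 69.9, 167 and 60.3 RPKM. Among the relatives of MSI1, FVE was the highest, at 150 and 63.8 RPKM and at 52.5, 126 and 59.5 RPKM. These genes, named as the most abundant of their lists, were among the 11 that were lower in replicate 3 in both crosses.

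**Figure D4:**
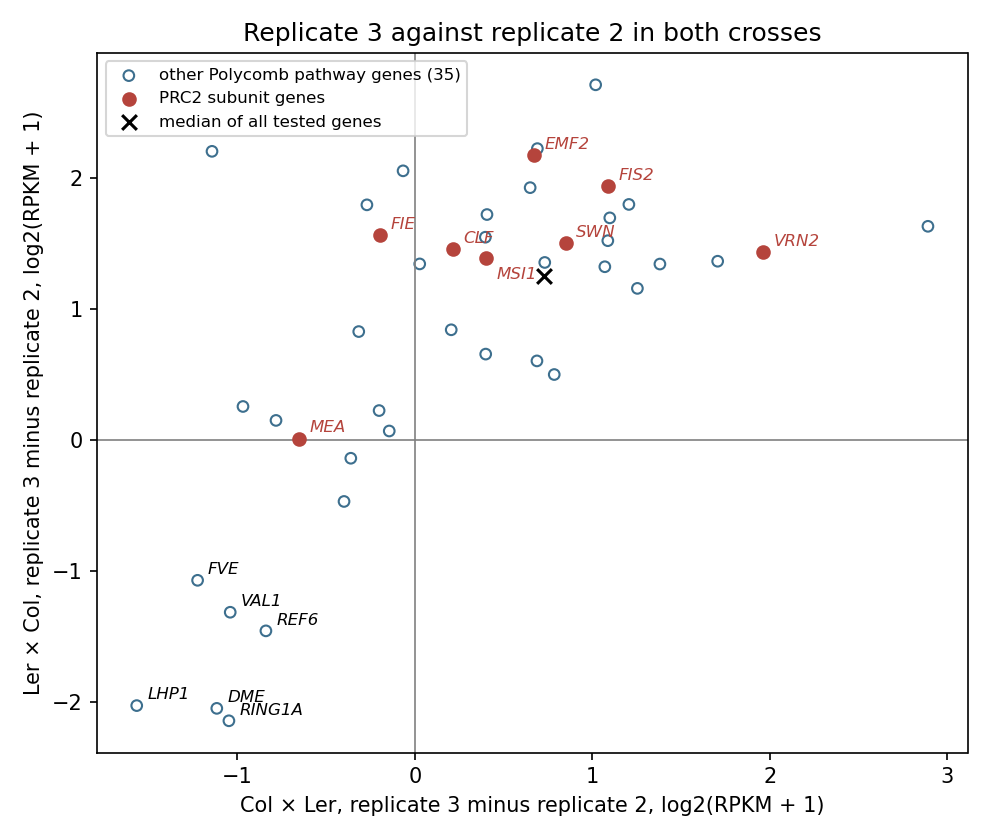
Replicate 3 minus replicate 2 on the log2(RPKM + 1) scale in Col × Ler (horizontal axis) and Ler × Col (vertical axis) for the 8 PRC2 subunit genes (red) and 35 other genes of the Polycomb pathway (open circles), with the median of all tested genes as a cross at 0.73 and 1.26. MEA lies at -0.65 and 0.01 and FIS2 at 1.09 and 1.94, while DME, RING1A, LHP1, VAL1, REF6 and FVE are below 0 on both axes.

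Of the 5 genes listed as FIS-PRC2 targets in seeds, the MADS-box gene PHE1 was the highest, at 38.1 and 29.7 RPKM in Col × Ler and at 33.9, 51.0 and 40.5 RPKM in Ler × Col. AGL62, a MADS-box regulator of endosperm cellularization, was at 30.4 and 26.9 RPKM and at 15.7, 20.4 and 13.8 RPKM. Its log2 fold change of 0.77 was not called by limma (adjusted p = 0.99997). The promoter of PHE1 also drove the tag by which the nuclei were selected. Of the 10 genes listed as targets of the sporophytic complexes, FLC, the floral repressor that VRN2 keeps silent after cold, was at 14.5 and 3.63 RPKM and at 23.9, 3.56 and 2.63 RPKM.

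The genes with levels most like those of MEA and FIS2 were found by the Euclidean distance of the 5 log2(RPKM + 1) values among the 26712 protein-coding genes. Nearest to MEA were RABH1d (AT2G22290, distance 0.17), AT1G71420 (0.36) and MEF18 (0.40), and 175 genes lay within a distance of 1. Nearest to FIS2 were AT2G39725 (0.18), AT1G67800 (0.24) and AlaAT1 (0.25), with 814 genes within 1. For the other members the number within 1 ran from 99 for VRN2, whose nearest gene was AT5G28150 (0.39), to 1214 for MSI1, whose nearest was AT3G15690 (0.17). Only VRN2 had fewer such genes than MEA.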

How the data were processed

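Poly(A) RNA of INTACT-purified endosperm nuclei at 4 DAP had been sequenced in paired-end reads of 125 bases. The authors deposited 1 table of RPKM values per gene and library. The submitters' processing notes name TopHat2 2.1 and TAIR10. The counting tool, its gene models and its use of strand are not given in the sources used here. Replicate numbers follow the column names; the titles number the Col × Ler libraries differently. The paper's methods state both that first replicates were left out, on an estimate of contamination, and that 3 Ler × Col replicates were merged. All 5 libraries were therefore used, with fits without replicate 1 of Ler × Col among the alternatives. The series' design text calls the replicates biological, and p-values measure the spread between these libraries.

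RPKM values are not counts, so limma 3.58.1 (R 4.3.3) with a variance trend was run on log2(RPKM + 1), a scale that understates changes of low genes. A gene entered the fit if 2 or more libraries had an RPKM of 1 or above, which left 25579 genes and all 8 members, with Benjamini-Hochberg adjustment over all of them. Differences between members used exact permutation tests over libraries (sign flips of 32 patterns, or 10 splits). Depth was estimated from tRNA genes with fewer than 20 reads, of which 96.8 to 98.0% fell on whole reads within 0.05. Read numbers per gene used TAIR10.1 exon lengths and are approximate. Names came from the TAIR10.1 annotation, which matched 32835 of 33602 identifiers. Coding sequences were aligned with Biopython 1.88, and tables were handled with Python 3.11.15, NumPy 2.4.6 and pandas 2.3.3. Alternatives were pseudocounts of 0.1 and 0.5, an RPKM filter of 5 or none, scaling to equal sums, quantile normalization, no variance trend, replicate blocks and leaving out each library.

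The 8 members are described in full. Of the lists, at most 4 genes each are named. The members and lists were chosen with earlier results of these data known. limma was tested on simulated data: with the spread of these libraries, 0 of 200 genes changed by 3 on the log2 scale were called between the crosses among 25579 genes, and with the spread divided by 4, 198 of 200, with 5 false calls.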

Additional observations from a re-analysis of the deposited data

How the results depend on the processing

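No PRC2 subunit gene was called between the crosses by limma in any of the 15 fits (119 gene fits, lowest adjusted p = 0.311), but the direction of the small log2 fold changes was not fixed. That of MEA was -0.11 with equal sums, -0.059 with quantile normalization and -0.075 with the replicate block by title numbers. That of FIS2 was -0.061 with quantile normalization, and that of VRN2 0.30 with quantile normalization and 0.36 with the block by title numbers. Leaving out 1 library in turn gave -0.27 to 0.38 for MEA, -0.41 to 1.08 for CLF, -0.29 to 0.89 for FIS2, -0.065 to 1.02 for EMF2 and -0.98 to 0.98 for VRN2. FIE (0.67 to 1.53), SWN (0.49 to 1.44) and MSI1 (0.09 to 0.79) stayed above 0. Without replicate 2 of Ler × Col, the values of CLF, FIS2 and EMF2 were -0.41, -0.29 and -0.065. CLF did not pass the RPKM filter of 5 and has no value there.

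The number of all genes called, 2, was 7 and 6 with pseudocounts of 0.1 and 0.5, 6 without a filter, 6 with equal sums, 1 with quantile normalization, 0 without a variance trend and 0 to 86 with a library left out: 0 without replicate 2 and 8 without replicate 3 of Col × Ler, and 0, 21 and 86 without replicates 1, 2 and 3 of Ler × Col. The replicate block by description numbers gave 86 calls, with no subunit gene among them. Deviations of the same-numbered libraries from their cross means correlated at 0.44 (replicate 2) and 0.02 (replicate 3) across genes. With 2 Col × Ler libraries, the deviations of one are the negatives of the other's. The correlations are therefore not separate checks and cannot decide whether the numbers pair the libraries. The main fit was left without a block. The 6 differences between paralogues within libraries moved by less than 1 SD in all 9 alternatives. The difference between crosses changed to -0.36 for FIS2 and VRN2 and to -0.18 for EMF2 and VRN2 with quantile normalization, and the cause was not tested. With 1 library left out, the differences between crosses ranged from -0.75 to 0.33 for MEA and CLF (above 0 without replicate 3 of Col × Ler or replicate 2 of Ler × Col), -1.61 to -0.11 for MEA and SWN, -1.12 to 0.44 for CLF and SWN (above 0 without replicate 1 of Ler × Col), -0.42 to -0.0096 for FIS2 and EMF2, -0.093 to 0.78 for FIS2 and VRN2 and -0.083 to 1.21 for EMF2 and VRN2 (both below 0 without replicate 2 of Col × Ler). In the replicate block they were -0.75, -0.30, 0.44, -0.086, 0.64 and 0.73 in this order. Depth limits CLF and VRN2 most, with as few as 37 and 22 estimated reads in a library.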
